A study of Mus musculus with 2 samples.

Results

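The pyrimidine nucleoside salvage enzymes are the proteins that turn uridine, cytidine, thymidine and deoxycytidine back into nucleotides or break them into base and sugar. The 10 genes described here, all of which had a row in the table of 21983 gene entries, were taken by name: the kinases Uck1, Uck2, Uckl1, Tk1, Tk2 and Dck, the phosphorylases Upp1, Upp2 and Tymp, and the cytidine deaminase gene Cda. They were measured in 14837 cells, a C57BL/6 mouse line of pancreatic ductal adenocarcinoma (PDAC), the main cancer of the exocrine pancreas. The cells spent 48 h in conditioned medium, meaning medium that other cells had already grown in. In 1 library the donors of the medium were CAFs (cancer-associated fibroblasts), fibroblasts of the tumour's stroma, and in the other they were 14837 cells. Both libraries are from a single line grown in DMEM with 10% serum and 100 U/ml penicillin, and the labels give neither the driver mutations of the line nor the source of the CAFs. The series' title speaks of nucleosides that the tumour's surroundings release. Only the CAF-medium library could be tied to a column of values, so levels within it are described and the media are not compared.

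Salvage saves a cell the cost of building pyrimidines from small precursors. Uridine-cytidine kinases trap uridine and cytidine as UMP and CMP, while uridine phosphorylases split uridine into uracil and ribose 1-phosphate, whose sugar can enter central carbon metabolism. Thymidine and deoxycytidine kinases feed DNA precursors in the cytosol and in mitochondria. In pancreatic cancer the pathway is also known for gemcitabine, a deoxycytidine analogue that deoxycytidine kinase activates and cytidine deaminase inactivates.

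The CAF-medium library held 21269197 counts. Of all entries, 52.6% had at least 10 counts, and their median level was 37.9 CPM, the gene's counts per 1000000 counts of the library. No replicate was at hand and nothing was tested. The intervals given are exact 95% intervals for counting error alone. Of entries with 10 to 99 counts, 36.0% held a multiple of 3, against 33.3% of the whole numbers in that range, and whether this bears on the intervals was not tested. Markers of ductal epithelium were present, with 5 of 6 between 370 and 1819 CPM, although Epcam had 2 counts. Among 7 fibroblast genes, Col1a2, Col3a1, Dcn and Lum were listed at 0, Pdgfrb had 1 count, Col1a1 had 29 and Pdgfra had 727, which gave a sum of 35.6 CPM. The 5 macrophage genes summed to 5.78 CPM, nearly all from Cd68, with Csf1r and Lyz2 at 0 and Ptprc and Adgre1 at 1 count each. The 3 endothelial genes summed to 0.235 CPM, with Cdh5 and Kdr at 0.

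Of the 10 salvage genes, 9 reached 10 counts, against 52.6% of all entries. Together the 10 had 7480 counts, or 352 CPM (344 to 360). Uridine and cytidine kinases held most of this. Their 3 genes took 76.2% of the members' counts (75.3 to 77.2), the thymidine kinases 12.6%, deoxycytidine kinase 5.53%, the phosphorylases 3.10% and cytidine deaminase 2.50%. The 3 genes include the kinase-like Uckl1, with 494 of their 5703 counts. Long transcripts collect more counts, so levels of different genes are compared as CPM per kilobase of the longest coding transcript, in short CPM per kilobase, for which the median entry stood at 11.9. On that scale the order of the functions was kept at its head, with 65.5% of the members' sum in the uridine and cytidine kinases and 17.4% in the thymidine kinases, while cytidine deaminase at 7.17% stood above the phosphorylases at 5.56% and deoxycytidine kinase at 4.36%.

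**Figure D1:**
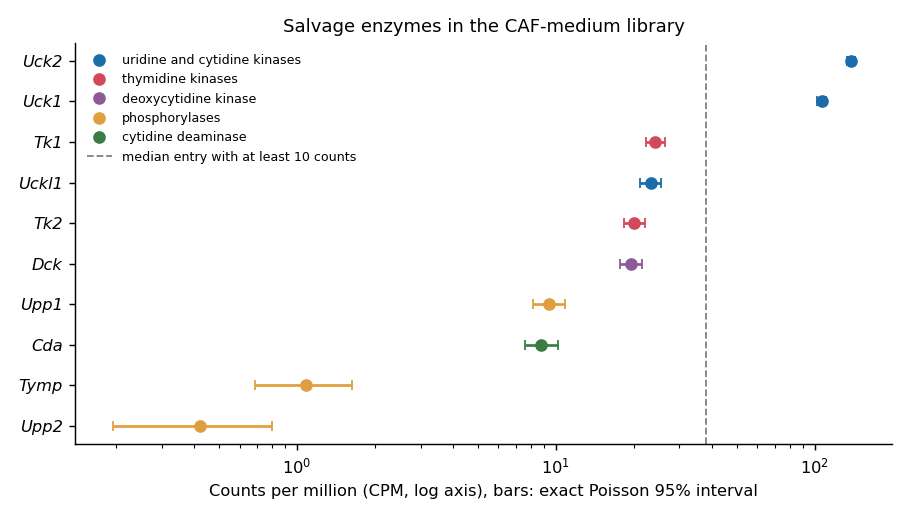
Level of each salvage gene in the CAF-medium library, in CPM on a log axis, with bars for the exact Poisson 95% interval, colours for the enzyme's function and a dashed line at the median entry (37.9 CPM). Uck2 and Uck1 stand to the right of the line at 138 and 106 CPM, and Tymp and Upp2 stand farthest to the left at 1.08 and 0.423 CPM.

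Uck1 and Uck2 encode the uridine-cytidine kinases, and Uck1 has a near-identical second copy in the genome. Gm4482, a processed pseudogene on chromosome 6 (122792584 to 122793325, minus strand, GRCm38), repeats bases 233 to 974 of the Uck1 transcript with 99.3% identity. Its 742 bases cover 37.0% of that transcript, all within the coding sequence. Of 64-base windows along Uck1, 20.5% were found unaltered in Gm4482 and none in Uck2. One 64-base coding stretch shows the likeness. It starts at base 241 of the Uck1 transcript, spans chr2:32259687-32259919 with an intron spliced out, and lies on the minus strand. The pseudogene copy at chr6:122793254-122793317 (minus strand) is identical, whereas Uck2, at chr1:167237596-167284786 and also spliced (minus strand), differs from Uck1 at 20 bases, printed in capitals. All 3 are given 5′ to 3′ in GRCm38.
Uck1: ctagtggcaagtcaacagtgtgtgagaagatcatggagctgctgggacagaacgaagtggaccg
Gm4482: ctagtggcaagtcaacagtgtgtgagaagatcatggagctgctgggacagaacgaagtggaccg
Uck2: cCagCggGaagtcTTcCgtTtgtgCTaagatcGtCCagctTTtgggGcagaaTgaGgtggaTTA
A read from such a stretch matches Uck1 and Gm4482 equally well but not Uck2, and the longest run shared by the Uck1 and Uck2 transcripts was 34 bases. Gm4482 has no row in the table, and how reads with several matches were counted is not given in the sources used here, so its part in the Uck1 count was not tested.

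Uck2 (chromosome 1, 167222883 to 167285320, minus strand) had 2945 counts, or 138 CPM (134 to 144), more than 83.3% of entries with at least 10 counts. Uck1 (chromosome 2, 32255002 to 32260159, minus strand) had 2264 counts, or 106 CPM (102 to 111), above 77.6% of them. In humans UCK2 is the form known to be high in many tumours. Both stood above the median entry on every measure of length used, but their order did not hold. Per kilobase of the longest coding transcript, Uck1 stood at 53.1 (50.9 to 55.3) and Uck2 at 29.3 (28.2 to 30.3), 1.81 times lower than Uck1 (1.72 to 1.92). The Uck2 transcript has 4731 bases, of which 16.6% are coding, and the Uck1 transcript has 2005 bases with 42.3% coding. Per kilobase of coding sequence Uck2 was the higher, at 1.41 times Uck1 (1.33 to 1.49). Gene counts do not show which transcript ends these cells use, so the order of the pair is not settled.

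Uckl1, a related kinase-like protein (chromosome 2, 181569149 to 181584892, minus strand), was far lower. It had 494 counts, or 23.2 CPM (21.2 to 25.4) and 12.6 CPM per kilobase, which puts it beside the median entry at 1.06 times its level. Uck1 exceeded Uckl1 by 4.23 times per kilobase (3.83 to 4.67) and Uck2 exceeded it by 2.33 times (2.12 to 2.57). Other lengths gave wider gaps, with Uck1 at 7.71 and Uck2 at 5.05 times Uckl1 per kilobase of all exons, and at 8.87 and 12.5 times per kilobase of coding sequence. Exons of the antisense gene Uckl1os cover 9.92% of the exonic bases of Uckl1, and without a known strand setting reads of that pair cannot be told apart.

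**Figure D2:**
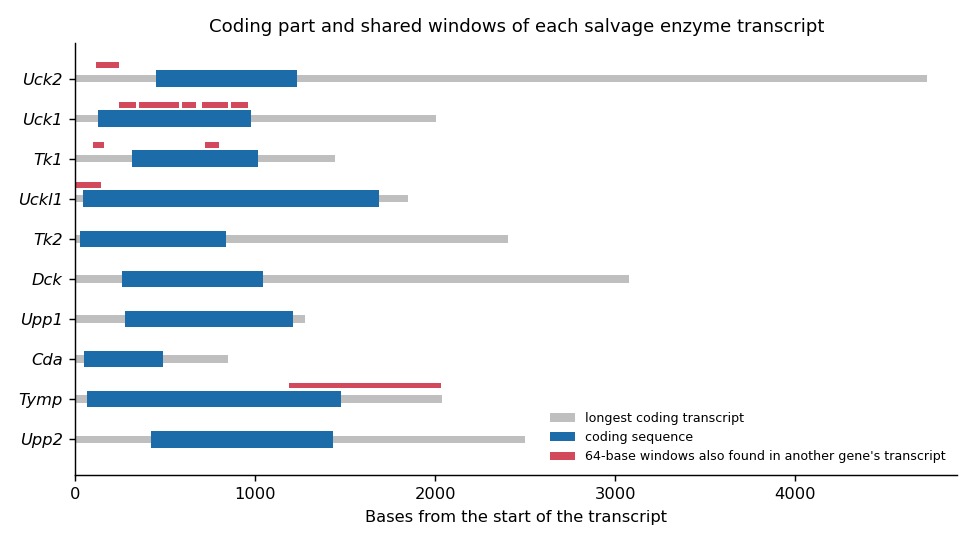
Longest coding transcript of each salvage gene (grey, bases from its start), its coding sequence (blue) and the 64-base windows that also occur in another gene's transcript (red). Shared windows run through the coding sequence of Uck1 (20.5% of windows) and the last part of Tymp (40.3%), and are absent from Upp1, Upp2, Tk2, Dck and Cda.

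Of the phosphorylases, Upp2 and Tymp were the lowest genes of the set. Upp1 lay among the lower kinases per kilobase of the longest coding transcript and of all exons, but below all 6 kinases per kilobase of coding sequence, where the nearest of them, Uckl1, was 1.40 times Upp1 (1.19 to 1.66). Upp1, the widespread uridine phosphorylase (chromosome 11, 9118103 to 9136170, plus strand), came to 200 counts, which is 9.40 CPM (8.15 to 10.8) and 7.36 CPM per kilobase (6.38 to 8.46). That level lay above 37.7% of ranked entries. Upp2, the form best known from liver (chromosome 2, 58567298 to 58792971, plus strand), was at 9 counts, which is 0.423 CPM (0.193 to 0.803), and was the member under the minimum of 10 counts. Upp1 exceeded Upp2 by 43.5 times per kilobase (22.4 to 96.5).

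Tymp, which splits thymidine into thymine and deoxyribose 1-phosphate (chromosome 15, 89371931 to 89377039, minus strand), had 23 counts, or 1.08 CPM (0.685 to 1.62). Per kilobase it stood at 0.531, and Upp1 exceeded it by 13.9 times (8.99 to 22.4). Of the exonic bases of Tymp, 42.0% also lie in exons of Sco2 on the same strand and 26.3% in exons of Ncaph2 on the opposite strand. Sco2, which serves the assembly of cytochrome c oxidase, was listed at 0 and Ncaph2, a condensin subunit, had 2742 counts. Whether reads from the shared exons were dropped or given to a neighbour was not tested.

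Kinase transcripts outweighed those of phosphorylases for uridine. The summed level of Uck1, Uck2 and Uckl1 was 94.9 CPM per kilobase against 7.53 for Upp1 and Upp2, a ratio of 12.6, or 14.2 per kilobase of all exons and 30.1 per kilobase of coding sequence. For thymidine, Tk1 and Tk2 summed to 25.2 CPM per kilobase against 0.531 for Tymp, a ratio of 47.5. It was 19.4 per kilobase of all exons and 77.8 per kilobase of coding sequence. Only Tymp was counted here, with its shared exons unresolved, and any cleavage of thymidine by Upp1 or Upp2 is left out. All 3 phosphorylase genes summed to 8.06 CPM per kilobase. The ratios given are of transcript levels, and enzyme amounts or fluxes were not measured.

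Of the thymidine kinases, Tk1 is the cytosolic enzyme known for its rise in S phase and Tk2 the mitochondrial one. Tk1 (chromosome 11, 117815526 to 117826092, minus strand) had 516 counts, or 24.3 CPM (22.2 to 26.4) and 16.8 CPM per kilobase (15.4 to 18.4). Tk2 (chromosome 8, 104226685 to 104248558, minus strand) had 428 counts, or 20.1 CPM (18.3 to 22.1) and 8.36 CPM per kilobase (7.59 to 9.19). Tk1 was 2.01 times Tk2 per kilobase (1.77 to 2.30) and 1.40 times per kilobase of coding sequence (1.23 to 1.59). When all annotated exons were counted as length, Tk1 came to 0.828 times Tk2 (0.727 to 0.944), since the exons of Tk1 add up to 5198 bases against 1440 in its longest coding transcript.

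Dck (chromosome 5, 88764996 to 88783281, plus strand) phosphorylates deoxycytidine and, less well, purine deoxynucleosides. It had 414 counts, or 19.5 CPM (17.6 to 21.4) and 6.32 CPM per kilobase (5.73 to 6.96). Dck and Tk2, which belong to the same enzyme family, could not be ordered: Dck was 0.756 times Tk2 per kilobase (0.659 to 0.868), but per kilobase of coding sequence the interval of the ratio (0.875 to 1.15) held equality. Dguok, the mitochondrial deoxyguanosine kinase of that family, stood above Dck on each measure, with Dck at 0.208 times Dguok per kilobase (0.184 to 0.235), 0.706 times per kilobase of all exons and 0.617 times per kilobase of coding sequence. Summed by compartment, the cytosolic Tk1 and Dck came to 23.2 CPM per kilobase and the mitochondrial Tk2 and Dguok to 38.7. The cytosolic pair was the lower on each measure of length, at 0.598 times the mitochondrial pair per kilobase, 0.759 times per kilobase of all exons and 0.914 times per kilobase of coding sequence.

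Cda, the enzyme that turns cytidine and deoxycytidine into uridine and deoxyuridine (chromosome 4, 138338424 to 138367992, minus strand), had 187 counts, or 8.79 CPM (7.58 to 10.1). Its transcript is short, at 846 bases, so its level per kilobase was 10.4 (8.96 to 12.0), 0.874 times the median entry and within the middle of the set. Dctd deaminates dCMP, the nucleotide counterpart of that step. Cda stood at 1.24 times Dctd per kilobase (1.03 to 1.48) and at 0.630 times per kilobase of coding sequence (0.526 to 0.753), so that pair has no stable order.

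Placed in order per kilobase, Uck1 led, followed by Uck2, Tk1, Uckl1, Cda, Tk2, Upp1, Dck, Tymp and Upp2. Neighbours were separated by more than counting error except Tk2 and Upp1, at 1.14 times (0.958 to 1.35), and Upp1 and Dck, at 1.16 times (0.979 to 1.38). On each of the 3 measures of length Uck1 and Uck2 took the first places, with at least 2.46 times the median entry, and Tymp and Upp2 the last, with at most 0.0652 times. Tymp and Upp2 themselves were not separated per kilobase of coding sequence, at 1.83 times (0.817 to 4.50). The places between them shifted. Tk1 stood above the median entry on 2 of the measures. Uckl1 and Cda did so on 1 each, by less than counting error. Tk2, Dck and Upp1 stood below it on all of them, although per kilobase of coding sequence Tk2 at 0.979 and Dck at 0.983 times the median entry were within counting error of it.

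**Figure D3:**
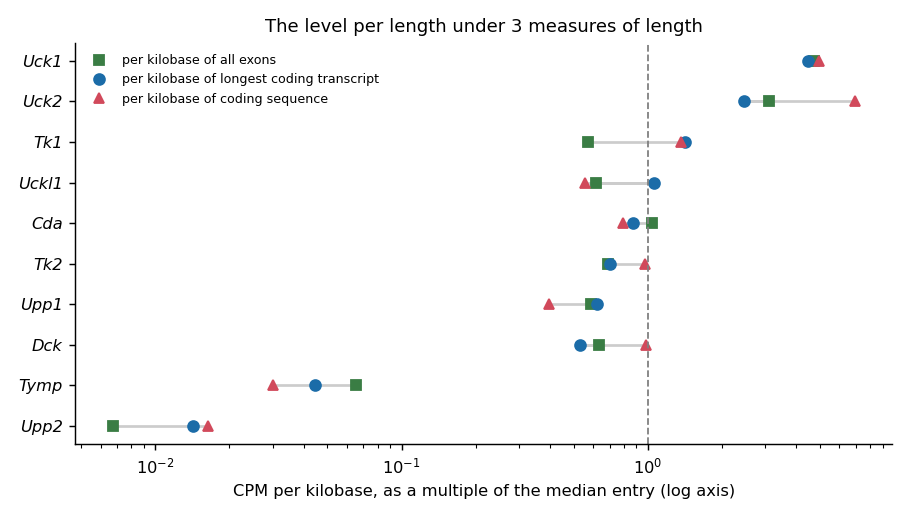
CPM per kilobase of each salvage gene as a multiple of the median entry on the same scale (log axis), with length taken as all exons, the longest coding transcript or the coding sequence. Uck1 and Uck2 lie right of the dashed line at 1 on all 3 measures, Tymp and Upp2 lie far left of it, and Tk1 crosses it, with 0.574 per kilobase of all exons and 1.42 per kilobase of the longest coding transcript.

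The 250 bases upstream of each annotated start, from RefSeq (GRCm38.p6), were compared as a feature that had no part in choosing the genes. All 10 genes matched, with 15 start sites. The median window among 32851 in the table held 6 CpG dinucleotides. Uck2 had 21 and Uck1 12 or 15 by start site, while Dck had 18, Cda 14 and Tk2 13. Uckl1 had 12 or 13 by start site, Upp1 had 6, 6 and 10, and Tymp had 9. Tk1, above the median entry per kilobase of its longest coding transcript, had 6, and Upp2, the lowest gene, had 29 at one start site and 2 at the other. By a match of sequence, only the Upp2 site with 2 was tied to the longest coding transcript of that gene. With either site the order by CpG number was not the order by level, as Dck had more CpG than Uck1 but a lower level. The GC box letters GGGCGG, on either strand, were in 8 of the 15 windows against 32.7% of all windows, and CCAAT was in 2 of them against 33.8%. The 8 windows belong to 7 genes, since 2 overlapping windows of Upp1 hold the same GC box. Windows of 1 gene are thus not separate observations. Neither the E-box CACGTG, which MYC and related factors recognise, nor the E2F-like letters TTTNGCGC were in any of the 15, against 6.02% and 1.13% of all windows. At such low shares, 15 windows, some of them overlapping, are too few to show whether these letters are rarer here. Bases outside these windows were not searched.

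The steps on either side of salvage were read from 43 companion genes, of which 34 had at least 10 counts, against 52.6% of all entries. Of the 10 salvage genes 40.0% stood above the median entry per kilobase and of the companions 44.2%. That median is over entries with at least 10 counts, whereas both sets include genes under that minimum. The share of all entries above it was not computed, so neither percentage can be called high or low. Uridine and cytidine enter through transporters, and Slc29a1, the main equilibrative one, stood at 53.4 CPM per kilobase (51.3 to 55.5), next to the 53.1 of Uck1. On the other lengths Slc29a1 was the lower. Per kilobase of all exons it stood at 29.5 against 38.7 for Uck1, and per kilobase of coding sequence at 85.7 against 125. The 3 concentrative transporter genes had 2 counts between them, all for Slc28a1. Past the kinases, the UMP-CMP kinase Cmpk1 stood at 23.8 CPM per kilobase. The thymidylate kinase Dtymk, at 82.8 (79.1 to 86.7), was above each of the 10 salvage genes on that scale, including Tk1, which makes its substrate from thymidine. Per kilobase of all exons Dtymk stood at 33.2, below Uck1 at 38.7, and per kilobase of coding sequence at 137, below Uck2 at 177. Cmpk2, a mitochondrial counterpart induced by interferon, had 6 counts.

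The same nucleotides can be made without salvage. For UMP, Umps, the last enzyme of synthesis from precursors, stood at 26.3 CPM per kilobase (25.2 to 27.5), Cad at 22.9 and Dhodh at 8.21. Uck1 at 53.1 and Uck2 at 29.3 lay above Umps on that scale, but Uck2 lay just below it per kilobase of all exons, at 25.3 against 26.3. For thymidylate, Tyms stood at 10.5 CPM per kilobase (9.71 to 11.3) beside Tk1 at 16.8. Tk1 was the higher on that scale alone, since Tyms stood at 5.44 and Tk1 at 4.67 per kilobase of all exons, and at 35.9 and 34.7 per kilobase of coding sequence, where they were within counting error of each other. Dut, which supplies dUMP, stood at 68.5. The ribonucleotide reductase subunits Rrm2, Rrm1 and Rrm2b, which make deoxynucleotides from ribonucleotides, stood at 62.4, 24.1 and 18.5. Uprt, a relative of the enzyme that salvages uracil in microbes, stood at 10.5 CPM per kilobase (9.58 to 11.4), above Upp1 at 7.36 (6.38 to 8.46). Per kilobase of all exons Uprt stood at 10.5 against 4.80 for Upp1, and per kilobase of coding sequence at 25.9 against 10.1. These levels are set side by side without a test.

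**Figure D4:**
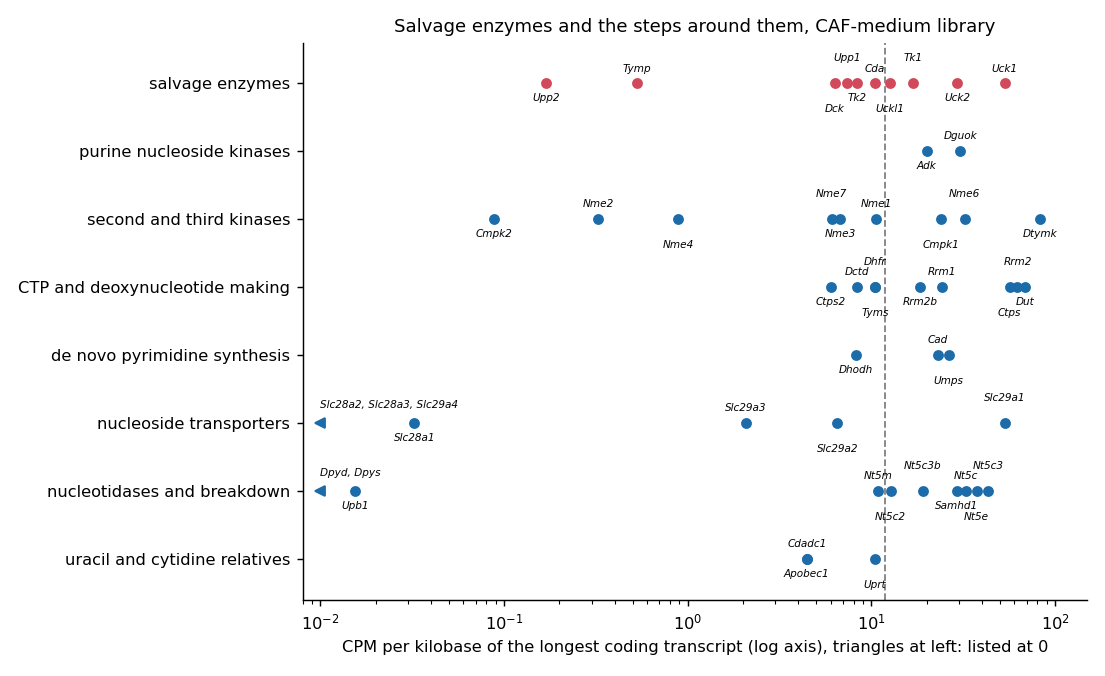
CPM per kilobase of the longest coding transcript (log axis) for the salvage genes (red) and 7 groups of companion genes (blue), with the median entry of 11.9 as a dashed line and genes listed at 0 as triangles at the left. Uck1 lies level with the transporter gene Slc29a1, Dtymk lies farthest right at 82.8, and Tymp and Upp2 lie apart from the other salvage genes.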

How the data were processed

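The authors deposited unscaled counts, 1 whole number for each gene symbol. HISAT2 2.1.0, StringTie and mm10 are named in the submitters' processing notes without a role. The sources used here do not state the counting tool, its strand setting or its annotation. Of 2 value columns, CAF was tied to a library by that library's title. The heading of the remaining 1 fits no label, so it stayed out of every step, and media could not be compared as planned. Members and gene lists were chosen with earlier results of these data known.

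CPM is 1000000 times the count over the column total of 21269197. Intervals are exact Poisson for levels and exact binomial for ratios and shares, at 95%; they take each count as an independent read, and copies made by PCR would widen them. Limits for genes at 0 are one-sided 95% limits of 3 counts, or 0.141 CPM, while the upper end of the exact interval, which is two-sided, is 0.173 CPM. Ranks are over 11569 entries with at least 10 counts, or 11525 of these with a length. GENCODE M21 (GRCm38, the build called mm10) gave positions, lengths, exon overlaps and the transcripts cut into 64-base windows every 16 bases, searched on both strands; 99.6% of entries matched its symbols. The longest coding transcript is the longest one annotated as protein coding. All 10 members were named, with companion genes and any gene holding at least 5% of a member's windows. The table holds 26 entries turned into dates, with 0.225% of counts, which stayed in the total. Interval coverage was tested on simulated data. The simulated counts were Poisson draws around the members' own counts, where exact intervals hold by construction. That test therefore cannot speak to PCR copies or to reads with several matches. Work was done in Python 3.11.15 with scipy 1.17.1, Biopython 1.88, numpy 2.4.6, matplotlib 3.10.9 and pandas 2.3.3.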

Additional observations from a re-analysis of the deposited data

How the results depend on the processing

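No paired analysis was possible because each medium had 1 library and only that of CAF medium was used. The minimum of counts moved little: 9 members reached 10 counts, 10 reached 1 and 8 reached 100, and of the companions 34, 38 and 33 did. Of all entries, 52.6% reached 10 counts, 63.4% reached 1 and 44.5% reached 100. Leaving mitochondrial and date entries out of the total gave a summed level of 356 CPM for the members, against 352. A scaling by upper quartiles gave 294 CPM. It multiplied the sum by the upper quartile over entries above 0 and divided it by that over entries with at least 10 counts. This only rescales 1 library. For ratios of counts, length was the choice varied. Uck2 over Uck1 was 1.30 in counts, 0.655 per kilobase of all exons, 0.551 per kilobase of the longest coding transcript and 1.41 per kilobase of coding sequence. Tk1 over Tk2 was 1.21, 0.828, 2.01 and 1.40 on the same scales. Cda over Dctd was 0.5, 1.65, 1.24 and 0.630. Uck1 over Uckl1 was 4.58 in counts, 7.71 per kilobase of all exons and 8.87 per kilobase of coding sequence, and Upp1 over Upp2 was 22.2 in counts and 87.9 per kilobase of all exons. The choice of length is what separates these values. Among the 10 members, places by CPM changed for 7 per kilobase of all exons, for 5 per kilobase of the longest coding transcript and for 4 per kilobase of coding sequence. Percentiles by CPM moved beyond counting error for 10 members when entries with 1 count were ranked too, and for 9 when at least 100 counts were asked for. Such moves follow from the choice of entries ranked, since the CPM of each member stayed the same. With windows of 100 bases in place of 64, chosen after seeing the data, 10.8% of those of Uck1 were shared in place of 20.5%. The alternatives between media (TMM, median of ratios, other thresholds) were not run. At 9 and 23 counts, the levels of Upp2 and Tymp are imprecise at this depth, with intervals over 2-fold wide. Both still took the last places on each measure of length, with the shared exons of Tymp unresolved.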

Other observations

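The last step to nucleoside triphosphates, shared by salvage and synthesis, rests on nucleoside diphosphate kinases, and their values depended on length and on overlapping genes. Nme6 stood at 32.2 CPM per kilobase of the longest coding transcript (29.9 to 34.6) and Nme1, a main cytosolic form, at 10.6 (9.84 to 11.4). Per kilobase of coding sequence the order turned round, with Nme1 at 73.9 and Nme6 at 61.0, and their counts were close, at 717 and 736. Nme2, the other main form, had 7 counts. Of its windows, 51.7% occur in other genes, and exons of Gm20390, a gene on the same strand listed at 0, cover 48.9% of its exonic bases and 12.5% of those of Nme1. Nme3 had 103 counts, with 87.8% of its windows shared. The part of this overlap in the low values was not tested.

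Genes that take nucleotides apart split by step. The nucleotidases, which return nucleoside monophosphates to nucleosides, had at least 10 counts in all 6 cases, against 52.6% of all entries. Which of them act on the products of the salvage kinases in these cells was not tested. The nucleotidases ranged from 10.9 CPM per kilobase for the mitochondrial Nt5m to 43.0 for Nt5c3, which acts on UMP and CMP. The surface enzyme Nt5e stood at 37.3. Nt5c3 did not lead on the other lengths. Per kilobase of all exons it stood at 17.0 against 24.5 for Nt5c, and per kilobase of coding sequence at 72.6 against 86.3 for Nt5e. Samhd1, which breaks deoxynucleoside triphosphates down to deoxynucleosides, stood at 29.2 (28.1 to 30.4). The 3 genes of uracil and thymine breakdown had 1 count in all, for Upb1, with Dpyd and Dpys listed at 0. The bases that Upp1 and Tymp release are the substrates of that pathway, which is known mainly from liver. The one-sided 95% limit for a gene at 0 is 0.141 CPM.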
